A study of Mus musculus with 35 samples.

Results

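The loci described here are those of 4 genes that mark fibroblasts and mesenchymal cells, Col1a1, Thy1, Snai2 and Twist1. A locus was taken as the gene body in the mouse build mm9 with 5 kb on both sides, and a region or peak belonged to it when it overlapped that stretch by at least 1 base. The gene bodies were given as rounded positions, chr11:94797500-94814450 for Col1a1, chr9:43851400-43856700 for Thy1, chr16:14705800-14709500 for Snai2 and chr12:34642400-34644700 for Twist1. All 4 genes were read from the low coordinate, and that position is called the gene start. By this rule 5 of 36431 ATAC-seq regions, 4 of 12566 H3K4me3 regions and 0 of 19224 H3K27me3 regions belonged to the loci. Each locus had 1 ATAC-seq region and 1 H3K4me3 region over its gene start, and Col1a1 had a further ATAC-seq region downstream of the gene. The rule itself used position and no measured value.

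The cells were mouse embryonic fibroblasts (MEFs), a mixed primary culture, collected on day 4 of a chemical treatment that starts their reprogramming. The treatments were named by the chemicals they held. C stands for CHIR99021, an inhibitor of the kinase GSK3, 6 for an inhibitor of the TGF-beta receptor ALK5, F for Forskolin, which raises cAMP, A for AM580, a retinoic acid receptor agonist, and E for EPZ004777, an inhibitor of the H3K79 methyltransferase DOT1L. C6FAE held all of them, C6AE lacked Forskolin, 6FAE lacked CHIR99021, CFAE lacked the ALK5 inhibitor, and AE was read as AM580 with EPZ004777. Every named treatment other than Basal and Control thus shared A and E, and what Basal held is not given in the sources used here. ATAC-seq, which reads open chromatin through the insertions of a transposase, was made in 14 libraries, 2 for each of 7 treatments (Control, Basal, AE, C6AE, 6FAE, CFAE and C6FAE). ChIP-seq of H3K4me3, a histone mark of active gene starts, and of H3K27me3, the mark laid down by Polycomb at silent developmental genes, was made in 1 library for each of 6 treatments, Control left out. A further library of each mark and of input was titled as control but labelled with the treatment C6FAE, so it was held as a sample of unknown condition.

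Col1a1 encodes the alpha1 chain of type I collagen, the main fibre of the matrix that fibroblasts secrete. Thy1 encodes CD90, a surface glycoprotein used to sort fibroblasts. Snai2, also called Slug, encodes a zinc finger repressor, and Twist1 encodes a basic helix-loop-helix factor; both drive the epithelial-to-mesenchymal transition and are active in embryonic mesenchyme. In a cell that keeps its identity the starts of such genes are usually open, carry H3K4me3 and lack H3K27me3.

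Twist1 was the 1 of the 4 genes whose promoter was in the RefSeq set used here, and that promoter is therefore shown. Twist1 also had the highest ATAC-seq level of the 4 genes after C6FAE and CFAE treatment. In Control the Col1a1 start region was higher. The promoter is written for the plus strand of GRCm38.p6, from 250 bases before the gene start to the first 50 bases of the gene, at chr12:33957421-33957720. That build differs from the build of the files, so no peak was placed on these bases. The capitals mark a cAMP response element half-site (TGACG on the minus strand, hence CGTCA as written), a CCAAT box (CCAAT) and 2 TATA motifs (TATAA).
Twist1 promoter: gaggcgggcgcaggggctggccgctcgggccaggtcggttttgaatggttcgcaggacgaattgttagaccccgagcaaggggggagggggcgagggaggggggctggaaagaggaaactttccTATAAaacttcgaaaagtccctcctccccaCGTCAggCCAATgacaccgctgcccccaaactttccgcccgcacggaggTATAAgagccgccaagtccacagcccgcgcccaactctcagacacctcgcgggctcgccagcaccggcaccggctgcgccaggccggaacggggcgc
The half-site spans bases -96 to -92, the CCAAT box -89 to -85, and the TATA motifs -126 to -122 and -47 to -43, counted from the gene start. A GC box (GGGCGG on the minus strand) spans -62 to -57, and no E-box (CANNTG) was found in the window. The motifs were chosen after the sequence was seen, were searched on both strands and do not overlap each other. Of 32851 mouse promoters of this length, 20.8% held TGACG, 37.4% CCAAT, 24.9% TATAA, 35.7% GGGCGG and 72.3% CANNTG. The GC content of the Twist1 promoter was 66.0%, higher than in 83.8% of the promoters, whose median was 52.7%, and it held 27 CpG. These are matches of letters, and binding there was not measured.

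Peaks of ATAC-seq and of H3K4me3 were listed at all 4 loci in every library with a known treatment. Many of the ATAC-seq peaks were weak, and at Thy1 in Control replicate 1 the highest -log10 q was 0.0385. A listed ATAC-seq peak does not by itself show open chromatin in that library. Each of the 14 ATAC-seq libraries listed at least 1 peak at each locus, and the 4 loci held 270 listed ATAC-seq peaks in all. Counted over regions, which are mostly much shorter than a locus, the region over each gene start had a peak in all 14 libraries. The downstream Col1a1 region had one in 13. Of all ATAC-seq regions, 42.2% had a peak in all 14. An enriched ATAC-seq peak, by the threshold given next, was listed in 18 of the 56 cases of a library at a locus. Each of the 6 H3K4me3 libraries listed a peak at every locus whose -log10 q was 1.3 or more (about 0.05 as q; called enriched here), and the loci held 97 listed peaks of this mark. In H3K27me3 the 4 loci held 37 listed peaks over 6 libraries, of which 1 reached that threshold. How many of all regions held an enriched peak was not counted for any assay. The counts of enriched peaks therefore do not set the loci apart from other regions.

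**Figure D1:**
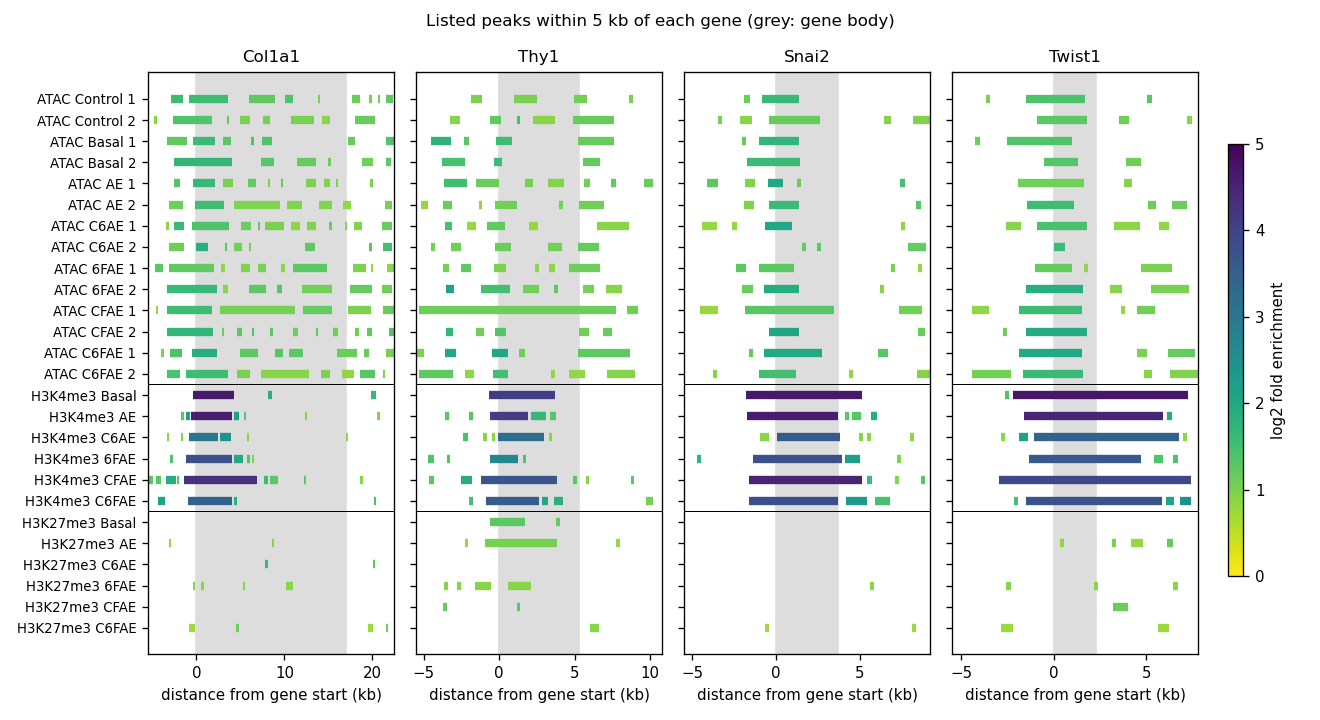
Peaks listed within 5 kb of each gene, one row per library, by distance from the gene start in kb. The grey band is the gene body and the colour is the log2 fold enrichment that the peak caller gave; H3K4me3 peaks span each gene start in all 6 libraries except at Snai2 in C6AE, where the peak begins 66 bp after it, ATAC-seq peaks are lower and broken up, and H3K27me3 peaks are few and weak.

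The peak caller was run at a loose threshold, and the ATAC-seq libraries listed between 191181 and 523278 peaks each, of which 810 to 15909 had a -log10 q of at least 1.3. ATAC-seq depth ran from 3346418 to 8764791 tags. H3K4me3 depth ran from 745089 tags in C6AE to 7103488 in Basal, and H3K27me3 depth from 633980 tags in 6FAE to 6392309 in C6AE. The 2 ATAC-seq libraries of Control and of C6FAE are described in the methods as biological replicates. For the other treatments no source used here says whether they came from separate cultures, so the spread between them may be technical. Counting many cells at once, none of the assays can tell a change in every cell from a change in the share of fibroblasts.

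The ATAC-seq regions were long. The Col1a1 start region covered chr11:94794194-94801584, 7391 bp, from -3306 to 4084 bp of the gene start. The Thy1 region covered chr9:43846899-43852283, 5385 bp, most of it upstream, from -4501 to 883 bp. The Snai2 region covered chr16:14704051-14708539, 4489 bp, and the Twist1 region chr12:34640510-34644169, 3660 bp. The median ATAC-seq region was 1478 bp, and the start regions were longer than 98.3% (Col1a1), 95.4% (Thy1), 92.2% (Snai2) and 86.7% (Twist1) of all regions. The downstream Col1a1 region was short, 982 bp at chr11:94818705-94819686, and began 21205 bp after the gene start. A predicted RefSeq gene lies within 5 kb of Col1a1 (Gm46293) and of Thy1 (Gm39323), and regions there cannot be given to one gene.

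Twist1 stood out in the level of open chromatin in CFAE and C6FAE. The mean RPKM (reads scaled to the length of the region and to the depth of the library) over the Twist1 region, in the columns merged over both libraries, was 19.8 in Control, 15.2 in Basal, 21.5 in AE, 18.1 in C6AE and 21.6 in 6FAE. It was 36.2 in CFAE and 40.7 in C6FAE. The treatments that held both CHIR99021 and Forskolin thus lay above the other 5. This order was not particular to Twist1. CFAE and C6FAE were also the highest at the start regions of Col1a1, Thy1 and Snai2. The same held for the median of all regions, 18.5 in CFAE and 17.7 in C6FAE, followed by 16.4 in AE. The Twist1 level exceeded that of 98.6% of all regions in C6FAE and 97.2% in CFAE, against 84.8% in Control and 54.0% in Basal.

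C6FAE was 2.06 times Control at Twist1, a difference of 1.005 on the log2(RPKM + 1) scale, and CFAE was 1.83 times Control (0.84, below the 2-fold mark). Taking out 1 chemical at a time, C6FAE exceeded C6AE, without Forskolin, by 1.13 and 6FAE, without CHIR99021, by 0.88, more than in 86.1% and 88.5% of all regions. It exceeded CFAE, without the ALK5 inhibitor, by 0.165, more than in 68.8%. Against AE the difference was 0.89 and against Basal 1.365 (85.0% and 93.1% of regions were lower). These comparisons share the C6FAE column and are not independent of each other.

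Thy1 had the lowest start region in Control, 7.96 RPKM, and was above that in every treatment. Its level was 14.7 in Basal, 12.3 in AE, 11.2 in C6AE, 11.8 in 6FAE, 17.1 in CFAE and 19.0 in C6FAE. C6FAE was 2.38 times Control (log2 difference 1.15) and CFAE 2.15 times (1.01), with Basal at 1.84 times (0.81). All 6 differences also stayed above 0 after median centring and after quantile normalization, where the smallest were 0.08 in 6FAE and 0.086 in AE. The 6 share the Control column and are not independent of each other.

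The start regions of Col1a1 and Snai2 stayed within 2-fold of Control. The Col1a1 start region lay at 23.6 in Control, 22.8 in Basal, 23.6 in AE, 19.6 in C6AE, 20.7 in 6FAE, 27.8 in CFAE and 25.3 in C6FAE, between 0.83 and 1.18 times Control. The downstream Col1a1 region was 14.8 in Control, 16.0 in Basal, 10.5 in AE, 19.9 in C6AE, 13.0 in 6FAE, 20.2 in CFAE and 10.5 in C6FAE. Its order of treatments was not that of the start region, with CFAE highest and C6FAE lowest. Snai2 lay at 20.4 in Control, 18.2 in Basal, 20.1 in AE, 13.5 in C6AE, 17.9 in 6FAE, 22.5 in CFAE and 24.7 in C6FAE, between 0.66 and 1.21 times Control. Col1a1 and Snai2 were above Control in both CFAE and C6FAE, and below it in both after median centring or quantile normalization. Twist1 stayed above Control in CFAE and C6FAE under both scalings.

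**Figure D2:**
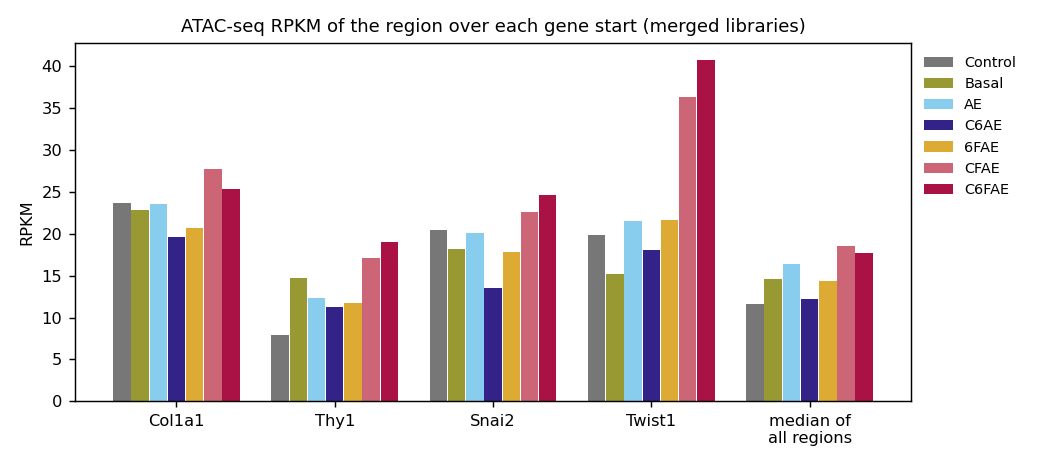
ATAC-seq RPKM of the region over each gene start by treatment, from columns merged over 2 libraries, so there are no error bars. The right-hand group is the median of all 36431 regions; Twist1 is at 36.2 and 40.7 in CFAE and C6FAE, while Col1a1 stays between 19.6 and 27.8.

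Past a 2-fold difference from Control, 3 of the 30 values of the 5 regions were higher, Thy1 in C6FAE and CFAE and Twist1 in C6FAE, and 0 were lower. None of the 3 was past 2-fold with a pseudocount of 10, after median centring (0.58 and 0.38 at Thy1, 0.43 at Twist1) or after quantile normalization (0.50 and 0.29 at Thy1, 0.595 at Twist1). The merged columns hold no replicates, so this is a count by size with no test. Over all regions 25.1% were at least 2-fold higher in C6FAE, 26.7% in CFAE, 14.2% in Basal, 18.6% in AE, 10.9% in C6AE and 15.2% in 6FAE. The shares at least 2-fold lower were 4.42% in C6FAE, 3.45% in CFAE, 3.63% in Basal, 4.48% in AE, 7.56% in C6AE and 4.30% in 6FAE. So few member regions cannot be set apart from these shares.

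The median of all regions was itself above Control, by 0.50 in C6FAE, 0.56 in CFAE, 0.39 in AE, 0.24 in 6FAE, 0.23 in Basal and 0.03 in C6AE (log2). Relative to that shift Twist1 was higher by 0.51 in C6FAE and 0.28 in CFAE, and Thy1 by 0.655 and 0.46. The Col1a1 start region stood at -0.40 and -0.33 relative to the shift, and Snai2 at -0.24 and -0.42. The difference from Control at Twist1 in C6FAE exceeded that of 75.1% of regions and at Thy1 that of 79.9%. Over all treatments, the share of regions with a lower difference from Control than a member ran from 10.7% to 79.9%. No member was thus near the end of the distribution of differences from Control. Between treatments the downstream Col1a1 region lay lower, at -0.866 for C6FAE minus C6AE and -0.887 for C6FAE minus CFAE. There 4.52% and 7.49% of regions had a lower difference.

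**Figure D3:**
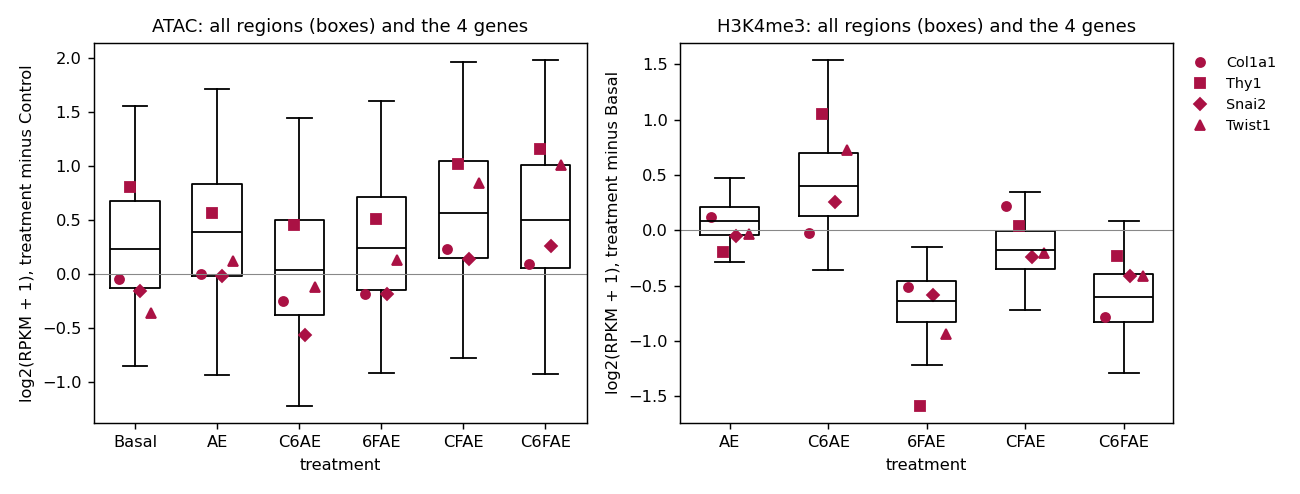
Log2(RPKM + 1) differences from Control (ATAC-seq, left) and from Basal (H3K4me3, right) by treatment. Boxes give the quartiles and median of all regions and whiskers the 5th and 95th percentiles; red marks are the regions over the 4 gene starts, and Thy1 in 6FAE at -1.58 lies below the whisker of H3K4me3.

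The single libraries were compared through their peak lists, by the highest fold enrichment of any peak listed at the locus. This ratio over background was not adjusted for depth, and the pileup behind it rises with depth. At Twist1 a pileup of 3.01 gave 2.67 in Control replicate 1 (3800049 tags). One of 7.14 gave 4.02 in C6FAE replicate 1 (7800792 tags). Depth thus enters every comparison by this measure, and its part was not tested. The highest enrichment at Twist1 was 2.67 and 2.42 in the Control libraries, 2.60 and 2.53 in Basal, and 2.12 and 2.92 in AE. It was 2.71 and 3.03 in C6AE, 2.27 and 3.58 in 6FAE, 3.03 and 3.8 in CFAE, and 4.02 and 3.07 in C6FAE. Both libraries of C6AE, CFAE and C6FAE lay above both Control libraries, whereas both AE and 6FAE had 1 library below both of Control and 1 above. A Twist1 peak with a -log10 q of at least 1.3 was listed in 3 of 14 libraries, 1 each of 6FAE, CFAE and C6FAE. These were the 3 libraries with the most enriched peaks in their whole lists (13337, 13723 and 15909), and the other library of each of these treatments had none at Twist1.

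Thy1 had 2.1 and 2.73 in Control and 4.06 and 2.86 in C6FAE, which did not overlap. Its highest library of all was 1 of 6FAE at 4.27, beside 2.33 in the other. In CFAE the libraries stood at 2.19 and 3.27, on either side of the higher Control library, and the 2-fold difference in the merged column was thus not seen in both libraries by this measure. The strongest Thy1 peak lay wholly upstream of the gene start in 7 of 14 libraries, across it in 4, both of C6FAE among them, and wholly after it in 3, both of Control among them. At Snai2 and Twist1 the strongest peak spanned the start in 13 of 14 libraries, the exception being the shallowest library, 1 of C6AE.

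Col1a1 ranged from 2.41 to 3.68 over the 14 libraries with a median of 3.04, and Basal and C6AE lay above both Control libraries. Snai2 ranged from 2.23 to 4.10 with a median of 3.08, and no treatment had both libraries above both of Control. Snai2 was the locus with an enriched peak in the most libraries, 7 of 14, against 4 for Col1a1 and 4 for Thy1. Of the 14 libraries 7 held no enriched peak at any of the 4 loci, both of Control and 5 treated ones (1 each of AE, C6AE, 6FAE, CFAE and C6FAE).

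**Figure D4:**
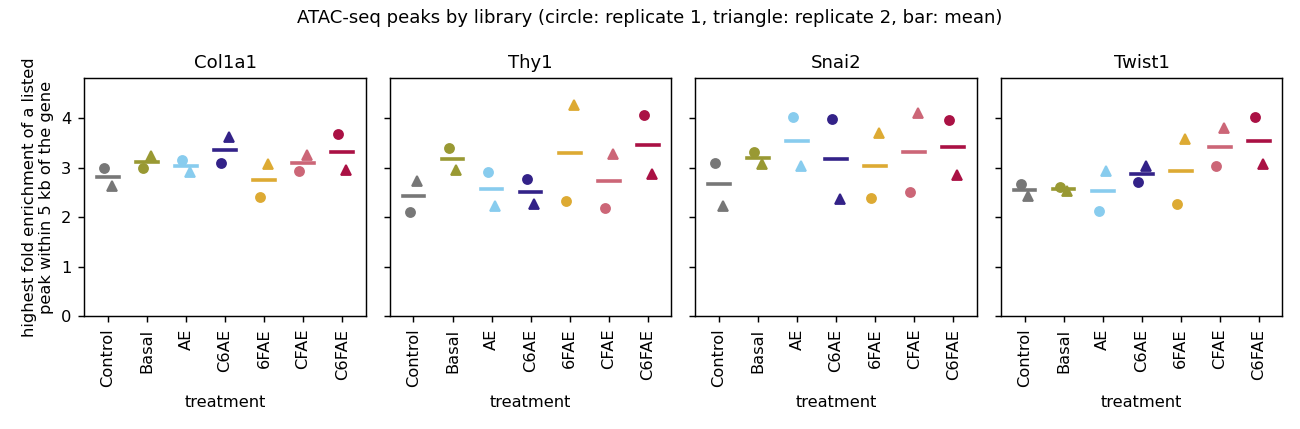
Highest fold enrichment of an ATAC-seq peak listed within 5 kb of each gene in each of 14 libraries (circles replicate 1, triangles replicate 2, bars the mean of 2). The libraries of one treatment lie up to 1.94 apart, at Thy1 in 6FAE, while the means of the treatments at that locus run from 2.42 to 3.46.

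An exact permutation test over all 135135 ways to split the 14 libraries into 7 pairs gave no adjusted p under 0.05 at any locus. The test used log2(fold enrichment + 1), not adjusted for depth, and is two-sided. For Twist1 the mean square between treatments was 1.20 times that within them (mean of C6FAE 3.54 ± 0.672, SD, n = 2, against 2.54 ± 0.177 in Control; exact p = 0.401, Benjamini-Hochberg adjusted over the 4 loci 0.931). The exact p was 0.541 for Col1a1 (adjusted 0.931), 0.698 for Thy1 (adjusted 0.931) and 0.933 for Snai2 (adjusted 0.933). With 2 libraries against 2 no exact p can go below 0.33, so single treatments were not tested against Control. The order of the treatment means at Twist1 was AE, Control, Basal, C6AE, 6FAE, CFAE and C6FAE, and its largest step, 0.49, was under the pooled SD within treatments, 0.536.

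The libraries differed in how many enriched peaks they held, from 810 in 1 library of C6AE to 15909 in 1 of C6FAE. In 21 of 28 cases (7 pairs of libraries, each at 4 loci), the library with more enriched peaks in the whole list had the higher value at the locus. By locus these were 6 of 7 for Col1a1 and Snai2, 5 for Thy1 and 4 for Twist1. The 4 loci share the same 7 pairs, so the 28 cases are not independent. The share over all ATAC-seq regions was not counted, so the count does not set the loci apart. Both Control libraries, with 3040 and 1982, were among the 4 lowest. The part of library quality and depth in the Control comparisons was not tested.

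Counted region by region, with the highest peak over each region, both treated libraries were above both of Control at 3 of the 5 member regions in Basal, 2 in C6FAE, 2 in C6AE, 1 in CFAE, 0 in AE and 0 in 6FAE. The same held for 38.1% of all regions in Basal, 38.7% in C6FAE, 13.9% in C6AE, 42.3% in CFAE, 28.8% in AE and 19.2% in 6FAE. Twist1 was counted in C6AE, CFAE and C6FAE, and Thy1 in Basal and C6FAE.

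Each gene had 1 H3K4me3 region over its start, with 1 length for all treatments, and a peak of a single library could be shorter. The strongest Twist1 peak measured between 6050 bp in 6FAE and 10352 bp in CFAE, and the strongest Thy1 peak in 6FAE measured 1885 bp. The Twist1 region was 14532 bp at chr12:34639437-34653968, longer than 99.7% of all regions of this mark, and ran from -2963 to 11568 bp of the gene start, beyond the 2300 bp gene. The Col1a1 region was 8369 bp (chr11:94796066-94804434), the Snai2 region 7260 bp (chr16:14703995-14711254) and the Thy1 region 5083 bp (chr9:43850188-43855270), longer than 96.9%, 94.4% and 76.1% of regions. The regions of the whole table had a median length of 3766.5 bp. All 4 overlapped an ATAC-seq region, as did 88.5% of H3K4me3 regions.

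Thy1 had the widest spread of H3K4me3. Its RPKM was 16.4 in Basal, 14.2 in AE, 35.2 in C6AE, 4.82 in 6FAE, 16.9 in CFAE and 13.9 in C6FAE. C6AE lay at 2.14 times Basal (log2 difference 1.05), and 6FAE at 0.294 times (-1.58). That difference was lower than at nearly all other regions (1.19% had a lower one) and stood at -0.95 relative to the median of the table. By level, 3.92% of regions were below Thy1 in 6FAE and 87.8% in C6AE.

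Twist1 and Snai2 had the same order of the 6 treatments, C6AE highest and 6FAE lowest. This order was not particular to them. The median of all regions also ran from C6AE (24.8) down to 6FAE (11.2), and only AE and Basal changed places. Twist1 had 17.3 RPKM of H3K4me3 in Basal, 16.8 in AE, 29.2 in C6AE, 8.57 in 6FAE, 14.9 in CFAE and 12.7 in C6FAE. Snai2 had 24.9 in Basal, 24.0 in AE, 29.8 in C6AE, 16.2 in 6FAE, 20.9 in CFAE and 18.5 in C6FAE. At both genes the 3 treatments with Forskolin lay below the 3 without, which was also so at 65.4% of all H3K4me3 regions (8212), and 3 libraries against 3 cannot give an exact p below 0.1. Col1a1 had 17.9 in Basal, 19.6 in AE, 17.6 in C6AE, 12.2 in 6FAE, 21.0 in CFAE and 9.95 in C6FAE, and its treatments with and without Forskolin overlapped, as did those of Thy1.

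**Figure D5:**
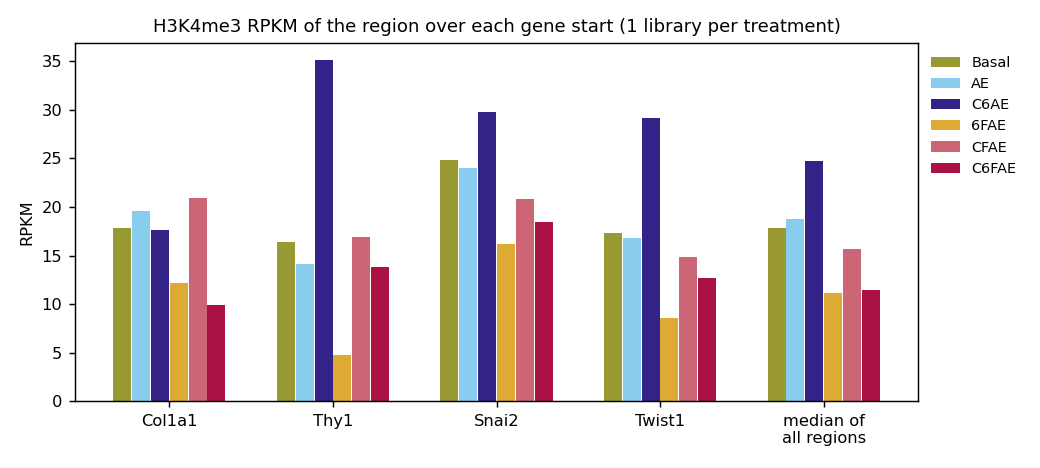
H3K4me3 RPKM of the region over each gene start by treatment, 1 library each, so there are no error bars. The right-hand group is the median of all 12566 regions; Thy1 runs from 4.82 in 6FAE to 35.2 in C6AE, and the median of all regions from 11.2 in 6FAE to 24.8 in C6AE.

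Past a 2-fold difference from Basal, 1 of the 20 values was higher, Thy1 in C6AE, and 1 was lower, Thy1 in 6FAE. Twist1 in 6FAE, at 0.496 times Basal in RPKM, stood at -0.93 with the pseudocount of 1, and with one of 0.1 it made 2 lower values. Both Thy1 values were within 2-fold after median centring (0.60 and -0.95) or quantile normalization (0.55 and -0.85). Among all regions 13.0% were at least 2-fold higher in C6AE, 0.318% in AE, 0.0716% in 6FAE, 0.645% in CFAE and 0.485% in C6FAE. At least 2-fold lower were 0.796% in C6AE, 0.0716% in AE, 12.0% in 6FAE, 1.76% in CFAE and 13.3% in C6FAE. The median of all regions differed from Basal by 0.40 in C6AE, 0.09 in AE, -0.64 in 6FAE, -0.18 in CFAE and -0.61 in C6FAE (log2). Relative to this shift Twist1 stood at 0.32 in C6AE, -0.12 in AE, -0.30 in 6FAE, -0.02 in CFAE and 0.19 in C6FAE, and so was above the table's median in C6FAE although its RPKM there was lower than in Basal. Snai2 likewise stood at 0.20 in C6FAE, whereas Col1a1 was at -0.18.

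The ATAC-seq and H3K4me3 levels can be set side by side. Col1a1 had its highest level of both in CFAE. Twist1 had its highest ATAC-seq level in C6FAE, where its H3K4me3 was 0.735 times Basal, and Thy1 in C6FAE had 2.38 times the ATAC-seq of Control with H3K4me3 at 0.843 times Basal. Both of these H3K4me3 differences, -0.42 and -0.23 on the log2 scale, turned positive after median centring (0.18 and 0.36) and after quantile normalization (0.18 and 0.375). The 2 assays have different references, and no H3K4me3 library of a labelled Control was at hand.

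The high values of C6AE came from the shallowest H3K4me3 library, 745089 tags. The highest fold enrichment of a peak, a ratio that the caller takes over background, was low in that library. At Col1a1 a pileup of 8 tags gave 8.20 in C6AE, and one of 47 gave 25.1 in Basal. The pileup rises with depth, so at unlike depths this ratio does not counter the RPKM. At Thy1 the fold enrichment was 17.3 in Basal, 17.0 in AE, 9.11 in C6AE, 6.51 in 6FAE, 12.9 in CFAE and 11.9 in C6FAE. Basal and AE were highest at every gene by this measure, and C6AE was lowest at Col1a1, Snai2 and Twist1, with 8.20, 11.8 and 10.9 against 25.1, 25.6 and 26.2 in Basal. Thy1 in 6FAE was the lowest of the 6 libraries by both measures, at a depth of 4058499 tags. Its pileup of 9 tags at the highest point compared with 32.0 in Basal.

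The strongest H3K4me3 peak reached across the gene start in all 6 libraries at Col1a1, Thy1 and Twist1, and in 5 at Snai2. At Twist1 listed peaks covered between 55.4% and 83.4% of the locus, lowest in 6FAE and highest in CFAE. The range was 20.6% to 45.1% at Col1a1, 18.0% to 45.0% at Thy1 and 36.6% to 55.1% at Snai2. These are shares of windows of unlike length, with gene bodies of 2300 bp at Twist1, 3700 bp at Snai2, 5300 bp at Thy1 and 16950 bp at Col1a1. They therefore do not rank the loci by the bases covered. In Basal the strongest Twist1 peak ran from -2220 to 7266 bp of the gene start.

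H3K27me3 was low at all 4 loci. No region of the H3K27me3 table lay within 5 kb, and the nearest was 17776 bp from Col1a1, 25601 bp from Twist1, 71266 bp from Thy1 and 73877 bp from Snai2. For comparison, 17.8% of all H3K4me3 regions and 9.37% of all ATAC-seq regions overlapped an H3K27me3 region. No count of changed regions could therefore be made for this mark.

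The weak H3K27me3 peaks listed at the loci gave no order of treatments. Thy1 had peaks in 5 of 6 libraries, with a highest fold enrichment of 2.41 in Basal, 2.06 in AE, 1.87 in 6FAE, 2.38 in CFAE and 1.84 in C6FAE and none listed in C6AE. Twist1 and Col1a1 had peaks in 4 of 6 libraries each, up to 2.27 and 3.07, and Snai2 in 2, up to 1.84. The peak at Col1a1 in C6AE, of 3.07-fold starting 7824 bp into the gene, was the one that reached a -log10 q of at least 1.3 (1.42). In 6FAE, at 633980 tags, a peak of 1.84-fold stands for a pileup of 1.00 tag. In 6FAE, CFAE and C6FAE 74, 136 and 82 peaks of the whole list reached that threshold, so in those libraries an absent peak says that the mark was not detectable, and the low level rests on Basal, AE and C6AE, with 6100, 4115 and 17766.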

How the data were processed

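ATAC-seq (14 libraries) and ChIP-seq of H3K4me3 and H3K27me3 were analysed from the deposited files, and the promoter sequence came from RefSeq. The tables deposited by the authors hold RPKM, averaged over the bins of a region (bamCoverage of deepTools 3.1.0), with 1 column per treatment, the ATAC-seq columns merged over libraries. The peak lists deposited by the authors were made per library with MACS 2.1.2 at p of 0.05 (tags of 150 bp extended to 250 bp, 1 tag kept per position) and hold the fold enrichment as a ratio over background, the pileup signal, and -log10 p and -log10 q. The list headers say that q was not calculated at such a threshold, yet the column holds values, which were used as listed. Bowtie2 and MACS2 are named in the submitters' processing notes. The positions of the genes are those of mm9; the list of genes was checked against RefSeq gene lengths (16819, 5196, 3544 and 2161 bp for Col1a1, Thy1, Snai2 and Twist1) and against the H3K4me3 regions, which lie over each start.

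The genes were chosen, and the tests set, with earlier results of these data known. The genes named are the 4 members, and every region within 5 kb of them is given; Gm46293 and Gm39323 are named as neighbours without values. Differences were taken on the log2(RPKM + 1) scale and called at 2-fold, and the merged columns allow no test. Single libraries were compared by the highest fold enrichment of a listed peak, with an exact permutation test over 135135 assignments and Benjamini-Hochberg adjustment over the 4 loci. The code was tested on simulated data. The 3 samples of unknown condition entered no comparison. Alternatives were other pseudocounts, scalings, fold thresholds, filters, windows and peak thresholds, each library left out and the replicate number as a block. Python 3.11.15, numpy 2.4.6, pandas 2.3.3 and matplotlib 3.10.9 were used. No molecular identifiers are named in the sources used here, so reads may repeat a molecule.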

Additional observations from a re-analysis of the deposited data

Results flagged for a closer look

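The H3K4me3 library titled as control, whose label gives the treatment C6FAE, entered no comparison, and its peaks were stronger than those of the 6 libraries with a known treatment at 2 of the 4 loci. At Twist1 its highest fold enrichment was 40.3, against at most 26.2 in the others, and at Thy1 it was 23.3, against at most 17.3. At Col1a1 (18.4) and Snai2 (25.5) it lay within the range of the others. Its RPKM was 21.1 at Twist1, 16.5 at Thy1, 19.0 at Col1a1 and 22.8 at Snai2, with 3281444 tags. Which condition it holds was not tested.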

How the results depend on the processing

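The counts of values past 2-fold depended on the setting; the cause was not tested. For ATAC-seq the 3 higher values became 0 with a pseudocount of 10, 0 after centring columns on the median, 0 after quantile normalization and 5 at 1.5-fold, and the 0 lower values became 1 after median centring (the downstream Col1a1 region in C6FAE, -1.03). For H3K4me3 the 1 higher value became 0 with a pseudocount of 10, 0 after median centring, 0 after quantile normalization and 2 at 1.5-fold. The 1 lower value became 2 with a pseudocount of 0.1, 0 with a pseudocount of 10, 0 after median centring, 0 after quantile normalization and 4 at 1.5-fold. No difference past 2-fold reversed, but of the 30 ATAC-seq differences 8 changed sign under median centring and 7 under quantile normalization, and of the 20 H3K4me3 differences 6 under each.

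No alternative brought the exact permutation test of the single libraries past its threshold. The lowest adjusted p of this test was 0.331, at Thy1 with only peaks within 1 kb of the gene start. There the exact p was 0.0828, against 0.698 in the main setting, so the Thy1 result moved with the window. Leaving out each library in turn, the adjusted p ran from 0.556 to 0.962 for Col1a1, 0.806 to 0.994 for Snai2, 0.58 to 0.962 for Thy1 and 0.556 to 0.962 for Twist1. With the replicate block the adjusted p was 0.894 at every locus, Basal left out because 1 of its labels has no number. The numbers did not pair the samples (15 correlations between -0.131 and 0.036). For H3K27me3, alternatives had no region to count. Twist1 and Thy1 differences from Control rest on 2 Control libraries with few enriched peaks.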
